A study of Homo sapiens with 10 samples.

Results

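The BCL2 family decides whether a stressed cell keeps the outer membrane of its mitochondria intact. Its messages were followed here in 2 neuroblastoma cell lines, SK-N-FI and SK-N-AS, with and without the conjugate BG-P1600-TAT. Members were taken as the probe sets whose platform symbol was 1 of 10 genes: BCL2, BCL2L1, MCL1, BCL2A1, BAX, BAK1, BCL2L11, PMAIP1, BBC3 and BID. A probe set was named for 9 of the 10, with 1 probe set each, out of 21448 probe sets that were not controls. BBC3 is named only.

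The 10 arrays fell into 4 groups. SK-N-FI control cells and SK-N-FI cells treated with 30 µM BG-P1600-TAT for 48 h had 2 arrays each. SK-N-AS control cells (arrays 25, 26 and 27) and SK-N-AS treated cells (arrays 28, 29 and 30) had 3 each. Control cells received PBS, and all cells grew in medium with serum. The series title describes the conjugate as PEGylated and directed at the norepinephrine transporter NET and at thyrointegrin αvβ3. The SK-N-AS titles write BG-P-TAT, taken here as the same agent at the same dose. The labels describe SK-N-AS as primary, although it is an established line, and do not say that its arrays came from separate cultures. Its p-values therefore rest on a spread between arrays that could be technical. For SK-N-FI the series design speaks of more replicates than were analysed here.

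In the intrinsic pathway of apoptosis, BH3-only proteins sense damage and either block the antiapoptotic members or activate the effectors BAX and BAK1. The effectors open pores in the mitochondrial outer membrane, cytochrome c escapes, and caspases follow. Neuroblastoma tumours are known for depending on BCL2 or on MCL1, and the antiapoptotic members differ in which BH3-only proteins they bind. In bulk RNA, fewer cells carrying a message and less message per cell cannot be told apart, and the activity of these proteins is set largely after transcription.

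The promoters of 3 members are shown because, among members with 1 transcription start in the table, their deposited signals differed most between control arrays of the lines. There BCL2 was brighter in SK-N-AS, and BCL2L11 and PMAIP1 were brighter in SK-N-FI. Between treated arrays, BAK1 and BAX differed more (-1.26 and -1.17, SK-N-AS minus SK-N-FI) than PMAIP1 (-0.85). Each sequence is the 250 bases before the RefSeq start in GRCh38.p14, 5′ to 3′ along the gene. BCL2 lies on the minus strand at chr18:63319770-63320019. BCL2L11 lies on the plus strand at chr2:111120664-111120913, and PMAIP1 on the plus strand at chr18:59899746-59899995. Capitals mark matches, on either strand, to the GC box GGGCGG, the E-box CANNTG, the cAMP response element core TGACG and the AP-1 site TGANTCA.
BCL2: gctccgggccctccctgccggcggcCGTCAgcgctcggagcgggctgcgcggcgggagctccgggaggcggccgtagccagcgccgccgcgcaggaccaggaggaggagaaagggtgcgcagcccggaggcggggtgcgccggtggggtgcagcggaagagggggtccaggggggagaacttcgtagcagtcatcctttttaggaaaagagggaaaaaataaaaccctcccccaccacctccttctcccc
BCL2L11: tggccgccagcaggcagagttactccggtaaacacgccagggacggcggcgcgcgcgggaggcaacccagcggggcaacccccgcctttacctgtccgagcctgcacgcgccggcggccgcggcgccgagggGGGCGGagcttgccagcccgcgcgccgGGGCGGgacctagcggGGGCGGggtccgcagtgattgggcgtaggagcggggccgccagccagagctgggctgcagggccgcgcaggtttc
PMAIP1: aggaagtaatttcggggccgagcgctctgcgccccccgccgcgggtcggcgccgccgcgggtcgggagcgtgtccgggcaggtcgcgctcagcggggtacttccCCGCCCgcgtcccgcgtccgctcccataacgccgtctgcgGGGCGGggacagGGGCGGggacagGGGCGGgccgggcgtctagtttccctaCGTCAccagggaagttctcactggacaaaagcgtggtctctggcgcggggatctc
The BCL2 stretch held 1 TGACG core, 225 bases before the start, and no match to the other motifs. BCL2L11 held 3 GC boxes, starting at positions -118, -91 and -75. PMAIP1 held 4 GC boxes, at -146, -106, -94 and -82, and 1 TGACG core at -55. Of 35116 promoters in the table, 42.6% held a GC box in this window, 61.8% an E-box, 21.2% a TGACG core and 6.57% an AP-1 site. Base composition was 70% G and C for BCL2, 76.8% for BCL2L11 and 72.8% for PMAIP1. These are matches of letters, not sites shown to be bound.

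Background was set per array: a signal passed it where it exceeded the 95th percentile of that array's 612 negative control probe sets. Signals are log2 values. The median over all probe sets was 7.02 to 7.07 on SK-N-FI arrays but 6.02 to 6.09 on SK-N-AS arrays, while the negative controls had medians of 4.02 to 4.05 and 3.86 to 4.04. Levels set between the lines are therefore given on 2 scales, the deposited one and one quantile-normalized over all 10 arrays. The lines were checked against markers of neuroblastoma cell states. Of 9 noradrenergic markers measured, 8 passed background on every SK-N-FI array and 4 on every SK-N-AS array. DBH, PHOX2A, GAP43 and SLC6A2 (which encodes NET) passed on all 4 SK-N-FI arrays and on no SK-N-AS array. CHGA, HAND2, GATA3 and ISL1 passed on every array of both lines, and TH on none. Between control arrays after quantile normalization, CHGA was higher in SK-N-AS (1.23, deposited -0.42) and ISL1 lower (-4.68, deposited -5.97). HAND2 and GATA3 differed little on that scale (-0.15 and -0.29, deposited -1.66 and -1.99). Of 10 mesenchymal markers, 3 and 5 passed on every array of the respective line. FN1 passed on every SK-N-AS and no SK-N-FI array, whereas CD44 was lower in SK-N-AS control arrays (-1.03, deposited -2.70). Of 8 markers of other cell types, CD68, a macrophage marker, exceeded background on all 6 SK-N-AS arrays and the leukocyte gene PTPRC on 5. None of the 8 did so in SK-N-FI, and the other 6 did so in neither line. The mean signal of the 8 lay between 4.90 and 5.29 over the SK-N-FI arrays and between 5.91 and 6.20 over the SK-N-AS arrays. Of the 8, CD68 and PTPRC thus moved with the lines, while the other 6 stayed under background in both. The part of any of these markers in the line differences below was not tested.

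Most of the family was measurable. In SK-N-FI, 7 of 9 members were above background on every array, where 38.1% of all probe sets were, and 2 members (BCL2 and BCL2A1) on none, where 54.8% were. In SK-N-AS, 5 of 9 members (BCL2, MCL1, BAX, BAK1 and BID) were above background on every array, against 30.9% of all probe sets, and only BCL2A1 on none, against 57.5%. Against the 99th percentile of the negative controls, MCL1 alone remained on every SK-N-FI array, and MCL1 and BID on every SK-N-AS array. The share of all probe sets was not taken at that percentile.

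Among the antiapoptotic members, BCL2 and, in the other direction, BCL2L1 separated the lines on the deposited scale, and MCL1 did not. After quantile normalization the BCL2L1 arrays of the lines overlapped. BCL2, the founding survival factor, read 7.04 and 6.61 in SK-N-FI control arrays and 6.29 and 6.64 in treated ones. In SK-N-AS it read 8.26, 9.62 and 9.17 in control arrays and 8.59, 9.01 and 9.30 in treated ones. Every SK-N-AS array was above every SK-N-FI array, and control and treated arrays overlapped in each line. No SK-N-FI array passed the background threshold for BCL2, although 3 of 4 passed the 90th percentile of the negative controls. By group mean, BCL2 stood in the order SK-N-AS control (9.01 ± 0.69, SD, n = 3), SK-N-AS treated (8.97 ± 0.36, n = 3), SK-N-FI control (6.82 ± 0.31, n = 2) and SK-N-FI treated (6.47 ± 0.25, n = 2). Neighbours in that order within a line overlapped, and only the step from SK-N-AS to SK-N-FI had no overlap.

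MCL1, a short-lived survival protein that PMAIP1 and BCL2L11 bind, read 12.62, 12.95, 12.95 and 12.27 over the SK-N-FI arrays (control 1 and 2, treated 1 and 2). Its SK-N-AS signals were 12.47, 12.90 and 12.84 in controls and 12.37, 12.69 and 12.87 after treatment. All 4 groups overlapped on the deposited scale. BCL2L1, which encodes BCL-XL, read 7.90, 8.24, 8.44 and 7.97 in the SK-N-FI arrays in the same order. It read 7.18, 6.48 and 7.13 in SK-N-AS controls and 6.83, 6.17 and 6.52 in treated arrays, and passed background on 1 of these 6. BCL2A1, an NF-κB-inducible relative, stayed between 3.95 and 5.38 and passed background on none of the 10 arrays, so its level was not measured.

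Both effectors were above background on every array, although BAK1 passed the 99th percentile of the negative controls on no array. BAX, which moves to mitochondria when activated, read 11.21, 11.05, 11.34 and 10.99 over the SK-N-FI arrays. The SK-N-AS arrays read 10.47, 10.21 and 10.14 in controls and 10.20, 9.89 and 9.90 after treatment. BAK1, which resides on mitochondria, read 9.26, 9.19, 9.47 and 9.25 over the SK-N-FI arrays. The SK-N-AS arrays read 8.10, 8.37 and 8.02 in controls and 8.04, 8.30 and 7.97 after treatment. On the deposited scale every SK-N-FI array was brighter than every SK-N-AS array for both genes, a direction that turns under quantile normalization (below). Within SK-N-AS, the spread between arrays of 1 group was an SD of 0.18 for either gene, where the median probe set had 0.30. Within SK-N-FI it was 0.19 for BAX and 0.12 for BAK1, where the median probe set had 0.22.

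Within groups, the BH3-only members varied more than the effectors in SK-N-AS, while BID and BAX were close in SK-N-FI (SD of 0.21 and 0.19). BCL2L11, which encodes BIM and binds every antiapoptotic member, read 9.06, 8.62, 8.88 and 9.03 in SK-N-FI. In SK-N-AS it read 6.36, 6.67 and 7.05 in controls and 7.50, 7.19 and 6.71 after treatment, and passed background on 3 of 6 arrays. PMAIP1, which encodes NOXA, a p53 target that binds MCL1, read 8.98, 9.37, 9.27 and 8.79 in SK-N-FI. In SK-N-AS, PMAIP1 ran from 6.95, 7.67 and 7.95 in controls to 7.69, 7.90 and 8.94 after treatment, so that 1 treated array stood above the rest and 1 control array, below background, under them. BID, which caspase-8 cleaves to link death receptors to mitochondria, read 10.00, 10.37, 10.29 and 10.47 in SK-N-FI. It read 11.72, 10.92 and 11.40 in SK-N-AS controls and 11.13, 11.10 and 10.48 in treated arrays. The lowest SK-N-AS array for BID, treated array 30, lay within 0.01 of the highest SK-N-FI array on the deposited scale.

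**Figure D1:**
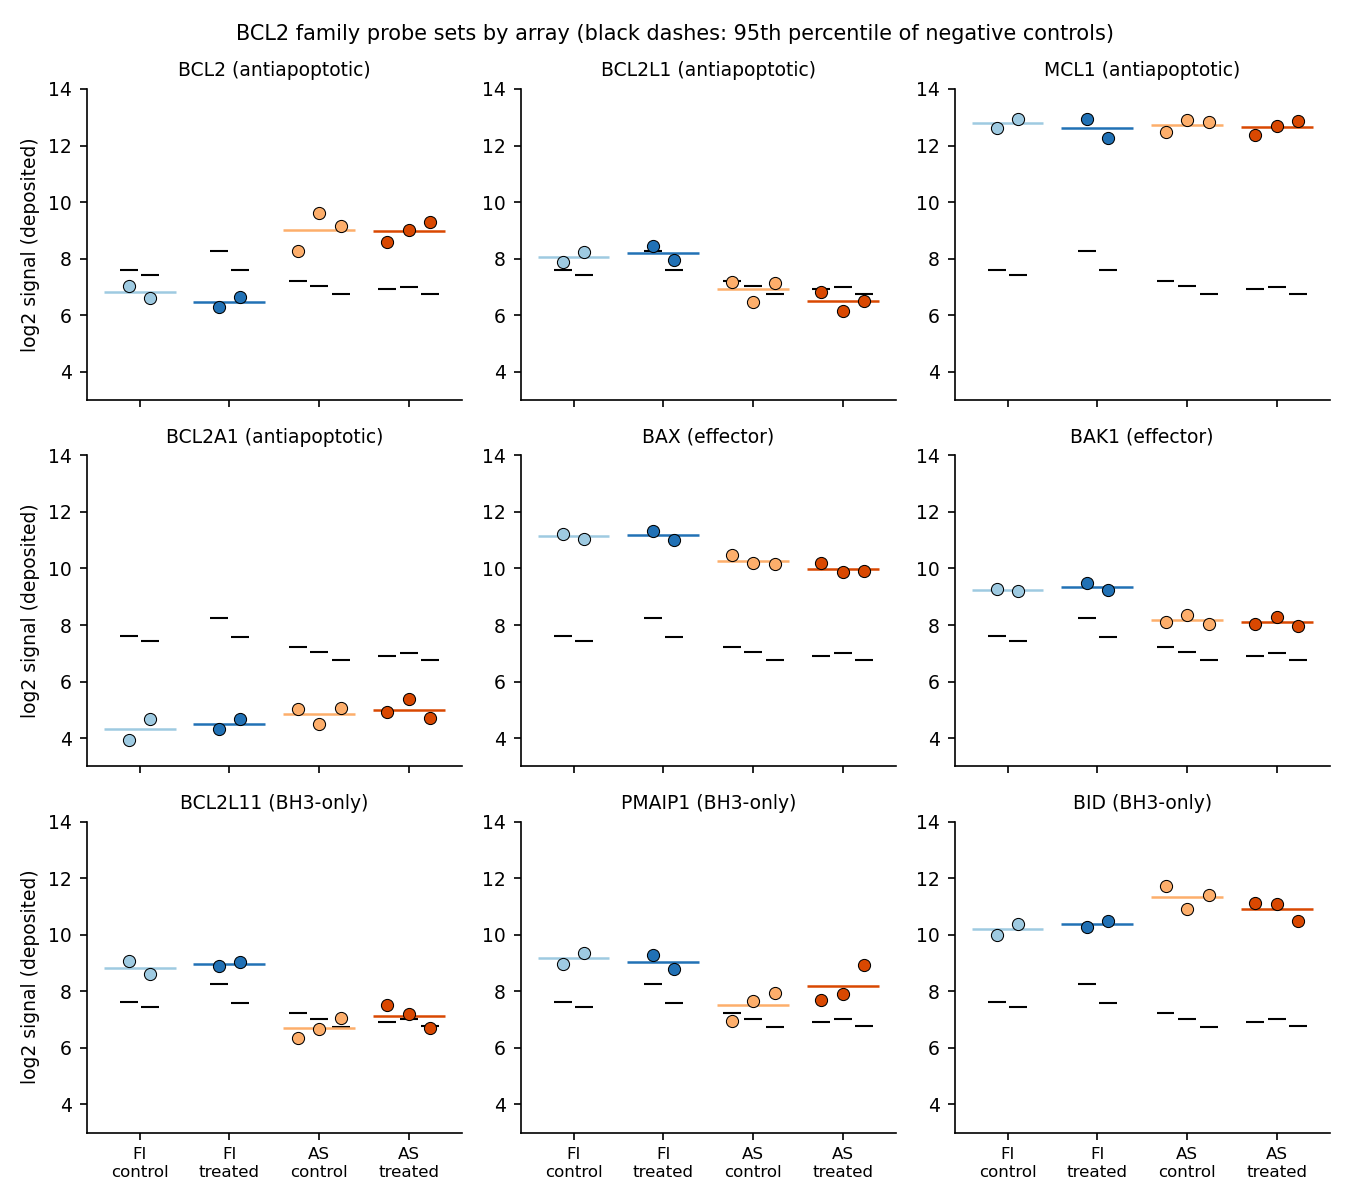
Deposited log2 signal (vertical axis) of the 9 members on each array, grouped along the horizontal axis as SK-N-FI (FI) and SK-N-AS (AS), control and treated; points are arrays, coloured lines are group means and black dashes are each array's 95th percentile of the negative controls. BCL2 lies under the dashes on all 4 SK-N-FI arrays and over them on all 6 SK-N-AS arrays, while BCL2A1 lies under them on all 10.

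The first question was whether the conjugate moved the family. No member passed the test in either line. In SK-N-FI the members' changes (treated minus control) ran from -0.36 for BCL2 (95% interval -0.95 to 0.23) to 0.20 for BID (-0.34 to 0.74), with a median of 0.12 against -0.01 over all probe sets. The treated mean was higher for 6 of 9 members. In SK-N-AS the changes ran from -0.44 for BID (-1.07 to 0.19) to 0.65 for PMAIP1 (-0.20 to 1.50), with a median of -0.06 against -0.00, and the treated mean was higher for 3 of 9. Leaving out control array 25 gave SK-N-AS changes of 0.36 for PMAIP1 and -0.26 for BID, and leaving out treated array 30 gave 0.27 and -0.23. Adjusted p was 1 for every member in both lines (limma, Benjamini-Hochberg over 21448 probe sets). The test called 0% of all probe sets in SK-N-FI, 0% in SK-N-AS and 0% for the difference between the lines' changes, so a lack of calls is not particular to the family. At an unadjusted p under 0.05, limma had 611, 557 and 457 probe sets in these 3 tests, and none was a member.

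For members above background on every array of a line, the intervals bound the change of each gene taken singly. For SK-N-FI, all 7 such members had an interval inside a change of 1 log2 unit, which is 2-fold, in either direction. For SK-N-AS, 4 of 5 did, and BID reached past it towards lower signal. PMAIP1, above background on 5 of the 6 arrays, and BCL2L11 (0.44, -0.18 to 1.06), on 3, reached past it towards higher signal, and BCL2L1 (-0.42, -1.03 to 0.18), on 1, towards lower signal. The changes of BCL2 in SK-N-FI and of BCL2A1 in both lines are of a signal at background and bound nothing. For BCL2, MCL1, BAX and BAK1 the SK-N-AS changes were -0.05 (-0.85 to 0.75), -0.09 (-0.61 to 0.42), -0.28 (-0.74 to 0.19) and -0.06 (-0.53 to 0.41). The SK-N-FI changes of the other members were 0.13 for BCL2L1 (-0.47 to 0.73), -0.18 for MCL1 (-0.85 to 0.49), 0.03 for BAX (-0.50 to 0.57), 0.14 for BAK1 (-0.36 to 0.64), 0.12 for BCL2L11 (-0.45 to 0.68) and -0.15 for PMAIP1 (-0.76 to 0.46).

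The difference between the lines' changes was 0.80 for PMAIP1 (-0.39 to 1.98), -0.64 for BID (-1.53 to 0.24) and -0.56 for BCL2L1, and none passed (limma adjusted p = 1 for each). Control and treated arrays overlapped for all 9 members in both lines. Over all probe sets, 27.8% had no overlap in the former line and 7.31% in the latter.

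**Figure D2:**
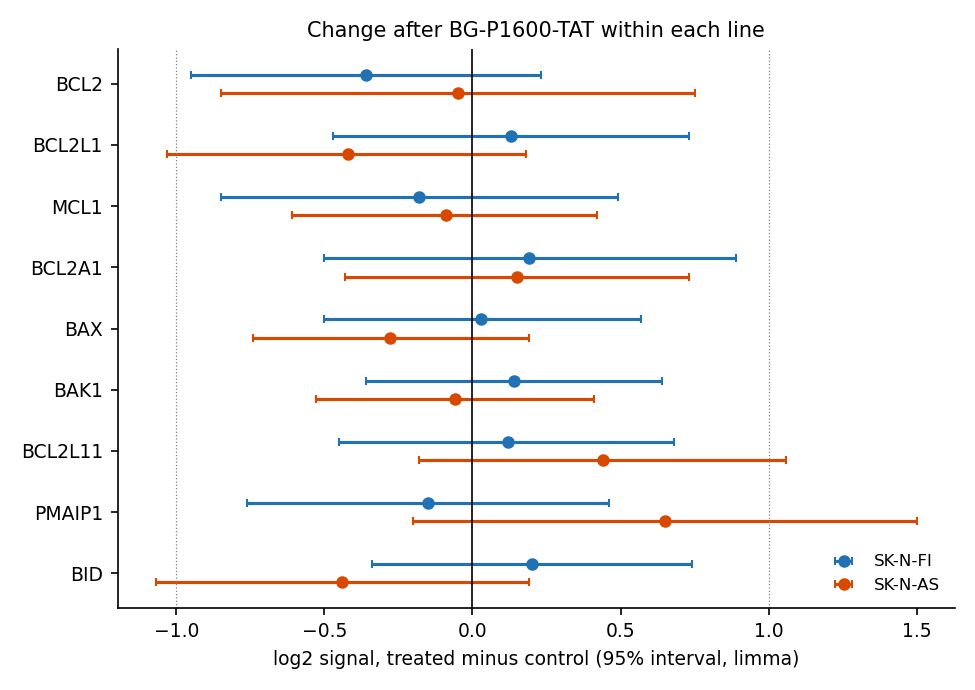
Change in log2 signal after treatment (horizontal axis, treated minus control) for the 9 members in SK-N-FI (blue) and SK-N-AS (orange); points are limma estimates, bars are 95% intervals and dotted lines mark a 2-fold change. Every bar crosses 0, and the widest, for PMAIP1 in SK-N-AS, runs from -0.20 to 1.50.

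In SK-N-AS, some members differed as much between arrays of 1 group as between groups. The pooled SD within groups was 0.60 for PMAIP1 and 0.55 for BCL2, above 91.8% and 89.7% of all probe sets, whose median was 0.30. It was 0.38 for BID, 0.37 for BCL2L11, 0.36 for BCL2L1, 0.33 for BCL2A1 and 0.24 for MCL1. In SK-N-FI the median probe set had 0.22, and the members ran from 0.12 for BAK1 to 0.41 for BCL2A1.

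The first principal component of the other gene probe sets held 50% of the variance over the SK-N-AS arrays, and the scores of control and treated arrays overlapped. Its scores were -57.5, 26.9 and 4.34 for control arrays 25, 26 and 27 and -31, 6.71 and 50.6 for treated arrays 28, 29 and 30. Arrays 25 and 28, at its low end, had the 2 lowest BCL2 signals (8.26 and 8.59). Array 25 had the highest BID (11.72), the highest BCL2L1 (7.18) and the lowest PMAIP1 (6.95). Array 30, at the high end, had the lowest BID (10.48) and the highest PMAIP1 (8.94). What this component stands for was not tested. Without arrays 25 and 28, chosen after seeing the data, the SK-N-AS change was 0.60 for PMAIP1, -0.37 for BID, 0.09 for BCL2L11 (0.44 with them) and -0.24 for BCL2 (-0.05 with them), and limma called no member.

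**Figure D3:**
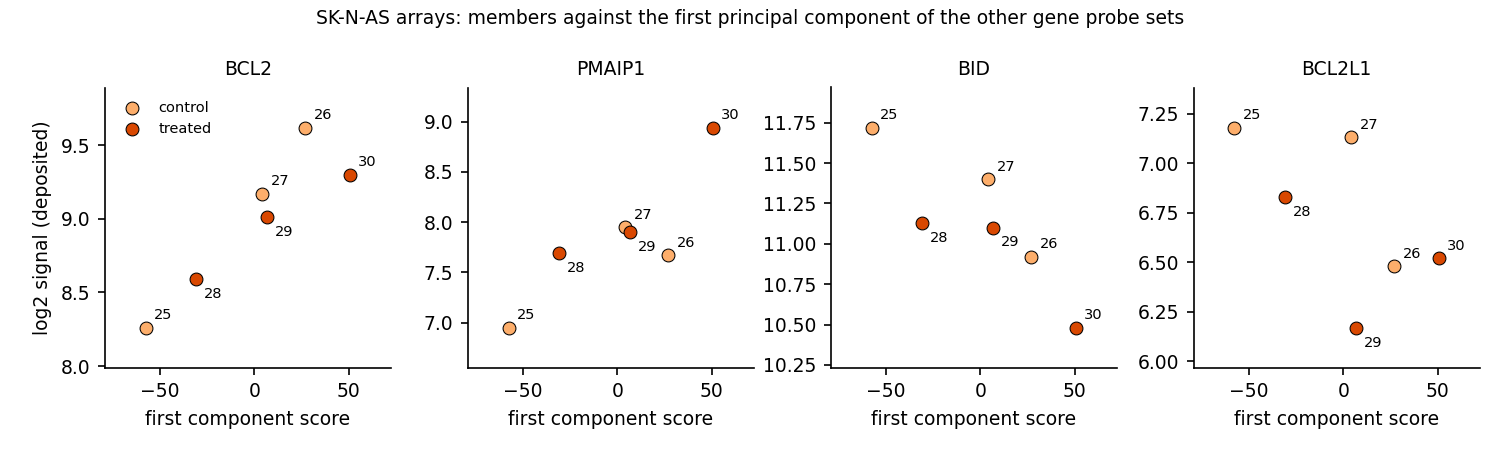
Deposited log2 signal of BCL2, PMAIP1, BID and BCL2L1 (vertical axes) on the 6 SK-N-AS arrays against each array's score on the first principal component (horizontal axes); light points are control arrays, dark points treated arrays, and numbers are array numbers. Array 25 sits at the low end with BCL2 at 8.26 and array 30 at the high end with PMAIP1 at 8.94.

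The second question was how the lines differ. By their medians, the arrays of the lines look like 2 separate processing runs. A difference between lines cannot be told apart from one between such runs on any scale used here. The p-values below rest on the spread between arrays within groups. BCL2 was higher in SK-N-AS on both scales. Between control arrays, its signal differed by 3.42 (95% interval 2.68 to 4.15, limma adjusted p = 6.82e-06) after quantile normalization and by 2.19 (1.40 to 2.98, adjusted p = 2.04e-04) on the deposited scale. Between treated arrays, the differences were 3.63 (limma adjusted p = 4.23e-06) and 2.50 (adjusted p = 7.11e-05). The comparisons of control and of treated arrays take their means from different arrays. They share the quantile normalization and the estimate of spread (standard error 0.33 for BCL2 in each after normalization), so they are not independent. Because BCL2 was not above background in SK-N-FI, its fold is a bound, set by the background threshold of each SK-N-FI array. It was at least 7.37-fold higher in SK-N-AS control arrays after quantile normalization and at least 2.81-fold on the deposited scale, and at least 5.65-fold and 2.06-fold in treated arrays. BCL2 passed in both comparisons under all 14 settings run in each, left-out arrays included.

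Between control arrays BID was also higher in SK-N-AS by 2.70 (2.09 to 3.32, limma adjusted p = 1.09e-05) after quantile normalization and by 1.16 (0.54 to 1.79, adjusted p = 0.00375) on the deposited scale. The quantile difference corresponds to 6.51-fold (4.26 to 9.96). Between treated arrays it was higher by 2.12 (adjusted p = 7.83e-05) after quantile normalization, but the deposited difference of 0.52 did not pass (adjusted p = 0.138). Nor did the difference of 0.61 with the negative control medians set equal (adjusted p = 0.0751). BCL2L11 ran the other way: it was lower in SK-N-AS on each of 4 scales in both comparisons, with deposited differences of -2.14 in control arrays (limma adjusted p = 3.74e-05) and -1.82 in treated arrays (adjusted p = 1.43e-04). Its quantile differences, -0.67 (adjusted p = 0.1) and -0.31 (adjusted p = 0.453), did not pass.

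For the other members the scale decided the call or its direction. The effectors turned sign: in control arrays BAX was higher in SK-N-AS by 0.74 after quantile normalization (limma adjusted p = 0.0184) and lower on the deposited scale, with a difference of -0.86 (adjusted p = 0.00528). For BAK1 the values were 0.58 (adjusted p = 0.0484) and -1.06 (adjusted p = 0.00106). With array medians over gene probe sets set equal, BAX and BAK1 differed by -0.02 and -0.22 and passed in neither direction. Without SK-N-FI control array 1 or 2, or SK-N-AS control array 25, neither effector passed on the quantile scale, and without SK-N-AS control array 26 BAK1 did not (0.49, adjusted p = 0.126). In treated arrays the deposited differences were -1.17 for BAX (adjusted p = 6.56e-04) and -1.26 for BAK1 (adjusted p = 3.00e-04), while the quantile differences of 0.44 and 0.37 did not pass.

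MCL1 was higher in SK-N-AS by 1.14 in control arrays (limma adjusted p = 0.00525) and 1.29 in treated arrays (adjusted p = 0.00243) after quantile normalization, but by -0.05 and 0.04 on the deposited scale, where neither passed. With gene medians set equal MCL1 passed too, by 0.79 (adjusted p = 0.0209) and 0.87 (adjusted p = 0.0131). With negative control medians set equal its differences of 0.09 and 0.12 did not pass. Without SK-N-FI control array 1 its quantile difference in control arrays was 0.96 (adjusted p = 0.0648). BCL2L1 differed by 0.27 and -0.38 after quantile normalization, neither passing, and by -1.14 (adjusted p = 0.00445) and -1.70 (adjusted p = 2.63e-04) on the deposited scale. In treated arrays, where no SK-N-AS array passed background for BCL2L1, the deposited signal was at least 2.48-fold higher in SK-N-FI. No bound above 1 followed after quantile normalization. The SK-N-FI treated arrays exceeded their own background thresholds for BCL2L1 by only 0.19 and 0.38. PMAIP1 differed by -0.05 in control arrays and 0.75 in treated arrays after quantile normalization, neither passing. On the deposited scale it was lower in SK-N-AS controls, with a difference of -1.65 (adjusted p = 0.00255), and the treated difference of -0.85 did not pass (adjusted p = 0.0752). BCL2A1 was under background throughout and its differences are not read.

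Counted over the family, 5 of 9 members (BCL2, BID, MCL1, BAX and BAK1) passed as higher in SK-N-AS control arrays after quantile normalization, where 23.9% of all probe sets did, and 0 of 9 as higher in SK-N-FI, where 22.8% did. On the deposited scale the counts were 2 of 9 (background 11.5%) and 5 of 9 (background 47.8%). The first count was 2 without SK-N-FI control array 1 and 3 without SK-N-AS control array 25. Between treated arrays, 3 of 9 (BCL2, BID and MCL1; background 23.4%) and 0 of 9 (background 22.2%) passed after quantile normalization. On the deposited scale 1 of 9 (BCL2; background 11.2%) and 4 of 9 (BCL2L1, BAX, BAK1 and BCL2L11; background 47.8%) did. The median probe set differed by 0.03 between control arrays after quantile normalization and by -0.61 on the deposited scale (-0.62 between treated arrays).

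**Figure D4:**
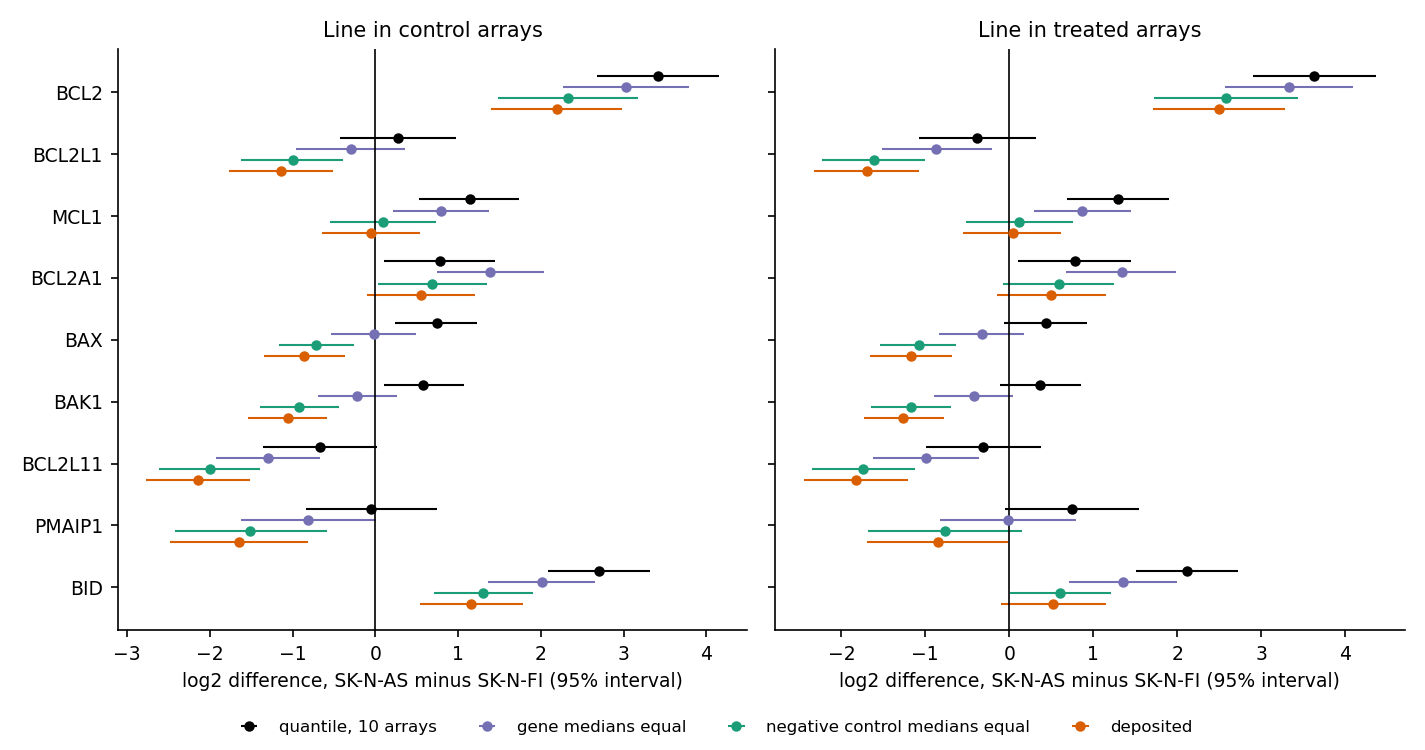
Difference in log2 signal between the lines (horizontal axis, SK-N-AS minus SK-N-FI) for the 9 members in control arrays (left) and treated arrays (right) on 4 scales; points are limma estimates and bars 95% intervals. BCL2 lies right of 0 on every scale in both panels, BCL2L11 lies left of it, and BAX and BAK1 cross from right to left between the quantile and the deposited scale.

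The genes around the family were read from lists of its wider members, partners and regulators; with the members, 66 of 71 listed genes had a probe set. No listed gene passed the treatment test in either line (limma). At an unadjusted p under 0.05 there were 0 for SK-N-FI and 3 for SK-N-AS. The smallest p for SK-N-FI was that of BIK, a BH3-only gene under background in all groups, with a change of -0.56. For SK-N-AS it was that of NFKB1, an NF-κB subunit, with a change of -0.55 (95% interval -1.04 to -0.07). The limma adjusted p was 1 for each.

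Between control arrays, the lists' counts stand beside those of all probe sets, of which 23.9% passed as higher in SK-N-AS and 22.8% as lower after quantile normalization, and 11.4% and 22.8% on both scales. None of the 7 lists is read as standing apart from these shares. Of 13 other family genes, 3 passed as higher and 2 as lower after quantile normalization, 1 and 2 did so on both scales, and the median difference was 0.32, against 0.03 over all probe sets. BCL2L13, a mitochondrial outer membrane protein with a role in mitophagy, was higher in SK-N-AS by 2.17 (limma adjusted p = 5.39e-06; deposited 0.57, adjusted p = 0.0305). The BH3-only gene BAD, whose protein is held in check by survival kinases, differed by -1.16 (adjusted p = 0.0439; deposited -2.80), and BNIP3L, a mitophagy receptor, by -1.11 (adjusted p = 0.0119; deposited -1.96). BNIP3, its hypoxia-inducible relative, differed by 0.77 (adjusted p = 0.0199) but by -0.42 on the deposited scale, where it did not pass.

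Upstream of BID, CASP8 had the smallest p of its list. Of 5 activators of BID, 2 passed as higher in SK-N-AS (23.9% of all probe sets) and 1 as lower (22.8%), and on both scales 1 and 1 (11.4% and 22.8%), with a median of 0.70. CASP8, the caspase that cleaves BID, was higher by 4.51 (limma adjusted p = 4.86e-08; deposited 3.22), and at least 16.6-fold higher in treated arrays (deposited 6.42-fold), where no SK-N-FI array was above background. CASP2, a caspase that can also cleave BID, differed by -1.97 (adjusted p = 5.90e-05; deposited -3.45).

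Downstream lie the apoptosome genes and the inhibitors of caspases. Of 4 apoptosome and caspase genes measured in a list of 6, 1 passed as higher in SK-N-AS (23.9% of all probe sets) and 2 as lower (22.8%), and on both scales 0 and 2 (11.4% and 22.8%), with a median of -0.14. APAF1, the apoptosome scaffold, differed by -1.38 (limma adjusted p = 0.0165; deposited -2.89), and CASP6 by 1.39 (adjusted p = 0.00151) with a deposited -0.27 that did not pass. CYCS, cytochrome c, did not pass on either scale (0.57 and -0.20). Of 6 inhibitor of apoptosis genes measured, 2 passed in each direction (23.9% and 22.8% of all probe sets), and on both scales 0 and 2 (11.4% and 22.8%), with a median of -0.66. BIRC5, survivin, differed by -3.19 (adjusted p = 2.42e-06; deposited -4.71), and NAIP, above background in no SK-N-AS array, was at least 3.52-fold higher in SK-N-FI control arrays (deposited 10.9-fold). XIAP, the caspase inhibitor, was higher in SK-N-AS by 1.61 (adjusted p = 0.00155), with a deposited difference of 0.16 that did not pass. BIRC2 passed on the deposited scale alone (-2.20).

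Among 7 other mitochondrial death factors, 2 passed as higher (23.9% of all probe sets) and 1 as lower (22.8%), and on both scales 1 and 1 (11.4% and 22.8%), with a median of -0.05. The outer membrane channel VDAC2, a partner of BAK1 and BAX, was higher in SK-N-AS by 1.02 (limma adjusted p = 0.00159; deposited 0.54, adjusted p = 0.0494). VDAC1 differed by 0.69 (adjusted p = 0.0149) with a deposited -0.34 that did not pass, while VDAC3 and HTRA2 passed on the deposited scale alone (-2.01 and -0.83).

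Of 10 regulators measured in a list of 11, 2 passed as higher in SK-N-AS and 3 as lower, the counts being the same after quantile normalization (23.9% and 22.8% of all probe sets) and on both scales (11.4% and 22.8%), with a median of -0.25. NFKB1, whose product's complexes can induce antiapoptotic members, was higher by 4.86 (limma adjusted p = 8.61e-08; deposited 3.50). DDIT3, the stress factor CHOP, was above background in every SK-N-AS and no SK-N-FI array, at least 4-fold higher in control arrays (deposited 1.54-fold). FOXO3, an inducer of BCL2L11, differed by -1.96 (adjusted p = 3.48e-05; deposited -3.57). E2F1, under background in SK-N-AS, was at least 1.25-fold higher in SK-N-FI control arrays (deposited 3.61-fold). Of 12 other p53 targets, 3 passed in each direction (23.9% and 22.8% of all probe sets), and on both scales 2 as higher and 3 as lower (11.4% and 22.8%), with a median of -0.27. TNFRSF10B, a death receptor, read 4.17 ± 0.24 in SK-N-FI controls (n = 2) and 11.00 ± 0.10 in SK-N-AS controls (n = 3). It was above background on every SK-N-AS array and no SK-N-FI array, and at least 26.8-fold higher in SK-N-AS control arrays (deposited 11.1-fold). GADD45A was higher by 3.10 (adjusted p = 9.99e-07; deposited 1.59), and TP53I3 and AEN differed by -3.24 and -1.73 (deposited -4.74 and -3.37). PMAIP1, a p53 target too, did not pass after quantile normalization.

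**Figure D5:**
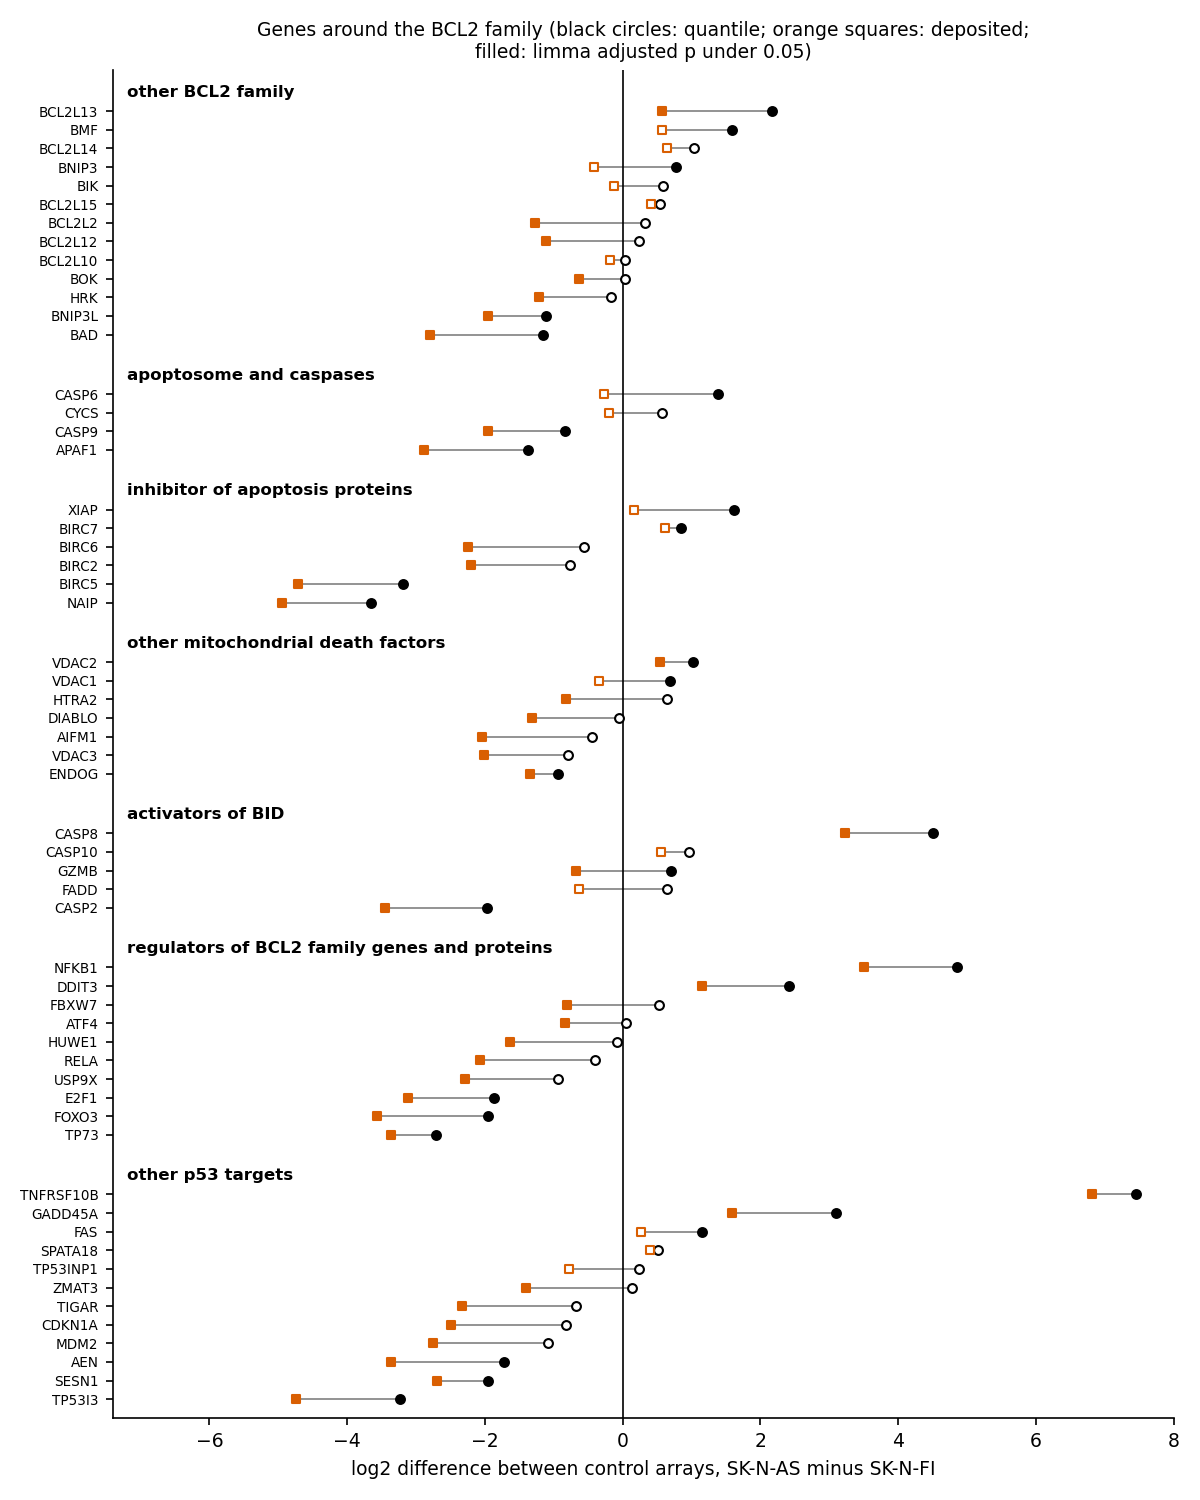
Difference in log2 signal between control arrays (horizontal axis, SK-N-AS minus SK-N-FI) for the genes of 7 lists around the family; circles are values after quantile normalization, squares deposited values, and filled symbols passed limma at an adjusted p under 0.05. The deposited square lies left of the circle throughout, while TNFRSF10B, NFKB1 and CASP8 lie right of 0 and BIRC5, NAIP and TP53I3 left of it on both scales.

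The genes most like BCL2, BID and MCL1, the members with the largest quantile differences, were sought among 7893 probe sets over the 10 arrays after quantile normalization. For BCL2 they were PPFIBP1 (Pearson r = 0.998), the ligand-activated factor AHR (0.997) and the neuropilin NRP1 (0.997). For BID they were CDCP1 (0.997), the aminopeptidase ANPEP (0.995) and the transcription factor CEBPB (0.995). For MCL1 they were RTN4 (0.981), the sheddase ADAM17 (0.981) and HEXIM1 (0.978). The arrays form 2 clusters by line, so r largely restates the line difference: 1581 other probe sets exceeded 0.9 with BCL2, 1840 with BID and 749 with MCL1. For MCL1 that line difference itself depends on the scale: it passed after quantile normalization and with gene medians set equal, but not on the other 2 scales. On the deposited scale MCL1 differed by -0.05 between control arrays, while ADAM17 had means of 11.16 over the SK-N-FI and 10.76 over the SK-N-AS arrays and HEXIM1 of 9.46 and 8.82.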

How the data were processed

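Per the labels' protocols, Trizol was used for total RNA, and biotin-labelled sense targets of whole transcripts were hybridised to Affymetrix arrays. The values the authors deposited are log2 signals, 1 per probe set and array. RMA is named in the submitters' processing notes, as is version 4.0.1.36 of the Transcriptome Analysis Console, and other settings are not given in the sources used here. RMA equalises the arrays it is run on, so a change shared by most genes would be removed, and the array medians of the lines look like those of 2 separate runs. The table held 24351 probe sets, 2903 of them controls. The platform annotation gave 1 symbol to 17709 and none to 3739 of the rest, and all 17709 gene identifiers were found in RefSeq of GRCh38.p14. A member's brightest probe set by mean over the 10 arrays was to be used, but each had 1. No arrays held identical values.

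Groups, by line and treatment, were taken from the labels. limma 3.58.1 in R 4.3.3 (lmFit, eBayes, no covariate) was run on all 21448 non-control probe sets, with Benjamini-Hochberg adjustment and a threshold of 0.05. Treatment was tested within each line on deposited values, and the difference between the lines' changes in 1 fit of all 10 arrays. The lines were compared after quantile normalization over the 10 arrays, with the deposited scale printed beside it. The code was tested on simulated data. Alternatives were other scalings, filters, array weights, eBayes settings, thresholds, a replicate block and left-out arrays.

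All members are named. Of each other list, up to 4 genes with the smallest p between control arrays were named among those above background on all arrays of at least 1 line, and in each treatment test the gene with the smallest p over the lists. The 3 genes most like a member by Pearson r were named for the 3 members with the largest line difference. Members and lists were chosen with earlier results of these data known. Promoter sequences are RefSeq's in GRCh38.p14, with entries for 9 of 10 members. Arrays carry no read depth, and their number limits the precision.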

Additional observations from a re-analysis of the deposited data

How the results depend on the processing

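In the treatment comparisons and their difference between lines, limma called no probe set under any setting run. Member changes, none of them called, turned sign with array weights for BAK1 in SK-N-AS (0.03) and for BCL2A1 in the difference between lines (0.10). Leaving out 1 array turned others. In SK-N-FI these ranged from -0.11 to 0.37 for BCL2L1, from -0.52 to 0.16 for MCL1, from -0.17 to 0.56 for BCL2A1, from -0.14 to 0.20 for BAX, from -0.11 to 0.34 for BCL2L11 and from -0.39 to 0.09 for PMAIP1. In SK-N-AS they ranged from -0.43 to 0.25 for BCL2, from -0.22 to 0.05 for MCL1, from -0.04 to 0.30 for BCL2A1 and from -0.15 to 0.05 for BAK1. For the difference between lines they ranged from -0.07 to 0.61 for BCL2, from -0.25 to 0.43 for MCL1 and from -0.41 to 0.32 for BCL2A1. In SK-N-AS the sign was kept for PMAIP1 (0.27 to 0.89), BCL2L11 (0.25 to 0.65), BID (-0.65 to -0.23) and BCL2L1 (-0.65 to -0.25). The difference between lines was larger in size for BCL2L1 than for BID after quantile normalization (-0.65 and -0.58), and with array weights larger than for PMAIP1 and BID (-0.72, 0.49 and -0.52). After quantile normalization 1 member (BAK1), in place of 0, had no overlap between SK-N-FI control and treated arrays, where 28.1% of all probe sets had none.

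In SK-N-FI, the differences between arrays 1 and 2 in control and in treated cells correlated at r = -0.171. That correlation alone cannot show whether the array numbers pair the samples. A replicate block on the array number left 0 probe sets called, as did the crossed pairing, added after seeing the data.

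Between the lines, BCL2 kept its direction and its call in both comparisons under all settings run, and BID did so except in treated arrays on the deposited and negative control scales. In control arrays on the deposited scale, the difference was -1.14 for BCL2L1, -0.05 for MCL1, -0.86 for BAX and -1.06 for BAK1, against values above 0 after quantile normalization. With gene medians set equal it was -0.30 for BCL2L1, -0.02 for BAX and -0.22 for BAK1. With negative control medians set equal it was -1.0, -0.72 and -0.92. PMAIP1 reached 0.13 with array weights, 0.21 without arrays 25 and 28 and -0.25 to 0.21 with 1 array left out. In treated arrays, BAX, BAK1 and PMAIP1 differed by -1.17, -1.26 and -0.85 on the deposited scale, by -0.33, -0.42 and -0.02 with gene medians set equal, and by -1.08, -1.17 and -0.76 with negative control medians set equal. Without arrays 25 and 28 PMAIP1 passed in treated arrays (0.97, limma adjusted p = 0.0268).

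Members passing as higher in SK-N-AS control arrays numbered 2 on the deposited scale, 2 with negative control medians equal, 2 against a 2-fold difference tested with treat, and 2 to 5 with 1 array left out. Those passing as higher in SK-N-FI numbered 5 on the deposited scale, 5 with negative control medians equal and 1 with gene medians equal. On the deposited scale, 11.5% of all probe sets passed as higher in SK-N-AS control arrays and 47.8% as higher in SK-N-FI. With gene medians equal, BCL2, MCL1, BID and BCL2A1, the last under background, passed as higher in SK-N-AS in both comparisons. In treated arrays the numbers higher in SK-N-AS were 1 and 1 on the deposited and negative control scales. Those higher in SK-N-FI were 4, 4 and, with gene medians equal, 2. The deposited shares of all probe sets there were 11.2% and 47.8%. Over all probe sets and in either direction, 10021 passed between control and 9769 between treated arrays after quantile normalization. The totals were 13454 and 13207 with gene medians equal, and 12348 and 12382 with negative control medians equal. Shares by direction were taken on the quantile and deposited scales alone. The quantile totals fell to 3194 and 3028 against a 2-fold difference. Among probe sets above background on at least 2 arrays of 1 line, where fewer were tested, they were 6452 and 6304. At the 99th percentile of the negative controls, 1 member of SK-N-FI, but 2 of SK-N-AS, were above background on every array. The share of all probe sets was not taken at that percentile. Members near the negative controls (BCL2A1 in both lines, BCL2 in SK-N-FI, BCL2L1 and BCL2L11 in SK-N-AS) are limited by that signal.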
